A study of Drosophila melanogaster with 7 samples.

Results

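Aminoacyl-tRNA synthetases are the enzymes that load each amino acid onto its transfer RNA (tRNA). The genes described here are the 33 of 17208 listed genes whose symbol joins 1 or 2 amino acid codes to RS, with or without the suffix -m. The suffix divided them into 18 cytosolic genes and 15 mitochondrial (-m) genes, and all 33 had enough counts to be tested. The pattern leaves out the cytosolic phenylalanine enzyme, whose subunit genes alpha-PheRS and beta-PheRS are given with the other charging genes.

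Charged tRNAs are the substrates of translation, and animal cells translate in the cytosol and, separately, in the mitochondria. Mitochondrial synthetases are encoded in the nucleus and imported. Synthetases fall into 2 unrelated folds, class I and class II, and in animals several cytosolic enzymes assemble with the scaffold proteins AIMP1, AIMP2 and AIMP3 into a multi-synthetase complex. The gene GluProRS encodes 2 synthetases, for glutamate and proline, in 1 polypeptide. In humans the genes of the lysine and glycine enzymes serve both compartments, so the absence of the suffix does not exclude a mitochondrial product.

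The libraries were made from wing imaginal discs, the larval epithelial sacs that form the adult wing, of third-instar Drosophila melanogaster. There were 3 libraries of the wild type (WT), whose library names carry w1118, and 4 of the genotype ds38k, a mutant of ds, which encodes the cadherin Dachsous. A second tag in the WT names, csvd111, is absent from the ds38k names, and the labels do not explain it. The labels give no larval age in hours, no sex and no number of discs, and they do not say that replicates came from separate animals. The p-values therefore measure the spread among these libraries alone, and that spread may be technical.

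Total counts ran from 21438650 to 31718949. Counts of ds, scaled to library size as CPM (counts per 1e6 counts), were 1422 to 1701 in WT and 161 to 229 in ds38k. All 10 wing disc markers examined were present in every library, with a summed level of 3390 to 4850 CPM in WT and 1710 to 2370 CPM in ds38k. Of these, 8 were called lower in ds38k, and 3 lower and 1 higher with the length correction described below. Ribosomal RNA genes took 0.842% to 1.515% of the counts in WT and 11.5% to 15.3% in ds38k. Replicate 4 of ds38k stood apart from the other 3, with a chi-square over its degrees of freedom of 233 to 259.7 against each, while replicates 1 to 3 had 40.1 to 71.8 among themselves. Fat body markers (all 6 present in every library) summed to 14.0 to 25.8 CPM in WT and to 849, 2760, 835 and 48.5 CPM in ds38k replicates 1 to 4. The 5 salivary gland markers summed to 0 to 8.54 CPM in WT and to 978, 77.3, 20.3 and 0.289 CPM in ds38k, and the 6 myoblast and muscle markers to 95.2 to 107 and 111 to 341 CPM. Among the salivary gland markers, Sgs5, Sgs7 and Sgs8 were at 0 in WT replicates 2 and 3. The sum of the 5 tracheal markers was lower in ds38k, at 1810 to 2090 CPM against 2790 to 3470 CPM in WT. Of these, 3 were called lower, and 2 with the length correction. The 6 haemocyte markers were mixed, and their sums overlapped, at 40.3 to 99.1 CPM in WT and 10.1 to 49.5 CPM in ds38k. Of these 6, Hml was called lower, while He and eater had higher means in ds38k. With the length correction none of the 6 was called. With the ribosomal RNA genes left out before scaling, the synthetase calls were again 12 higher and 2 lower for the cytosolic and 2 higher and 5 lower for the mitochondrial genes. The part of other tissues in the results was not tested, but ds38k replicate 4, with the lowest fat body, salivary gland and muscle marker sums of that group, is shown with every main value. In bulk tissue, fewer cells of a type and less RNA per cell cannot be told apart.

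The cytosolic synthetase genes were higher in ds38k discs more often than the mitochondrial genes were. Of 18 cytosolic genes 12 rose, 2 fell and 4 were not called (edgeR quasi-likelihood test, adjusted p under 0.05). The 3 largest rises were those of LysRS (3.42-fold), TyrRS (3.27-fold) and SerRS (1.81-fold), the enzymes for lysine, tyrosine and serine, and GluProRS fell by the most. Of 15 mitochondrial genes 2 rose, 5 fell and 8 were not called. Of all 9294 tested genes 34.2% were called higher and 30.8% lower, 65.0% in either direction; of the 33 synthetase genes 21 were called. The corresponding shares were 66.7% higher and 11.1% lower of the cytosolic genes and 13.3% and 33.3% of the mitochondrial genes. The median log2 fold change was 0.39 over the cytosolic genes, -0.03 over the mitochondrial genes and 0.07 over all tested genes. With upper-quartile scaling, which moved the median of all tested genes to 0.33, the mitochondrial genes turned to 5 higher and 3 lower. The difference between the classes was not itself tested over genes, and the ratios within libraries are given for it further on. The libraries of WT and ds38k were fully separated for 14 cytosolic and 7 mitochondrial genes, 21 of 33 in all, against 66.4% of all tested genes.

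Fold changes in this table ran with transcript length, so each call is also given after a correction for it. The correction removed from every library a smooth trend along the median annotated transcript length. The trend was that of each gene's deviation from its own mean log2 level over the libraries. With it 15 cytosolic genes rose, none fell and 3 were not called, against 27.6% higher and 19.1% lower of 9235 genes. Of the mitochondrial genes 2 rose, none fell and 13 were not called. The corrected medians were 0.55 for the cytosolic and -0.05 for the mitochondrial genes. Leaving out each library in turn gave 13 to 15 cytosolic rises in the corrected fit.

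Levels were compared between genes as CPM per kilobase of the median transcript. In WT discs SerRS stood first with 152 ± 22.2 CPM per kb (SD, n = 3), followed by AspRS (aspartate) with 132 ± 6.22, GluProRS with 131 ± 8.27, AlaRS (alanine) with 125 ± 15.3 and GlyRS (glycine) with 118 ± 8.16. Over the libraries each of these overlapped the next in order, while SerRS, AspRS and GluProRS were above GlyRS without overlap. The lowest cytosolic genes were TrpRS (tryptophan) at 27.4 (26.4 to 28.6 over the libraries), MetRS (methionine) at 27.9 ± 1.94 and TyrRS at 28.9 ± 3.46 CPM per kb, which overlapped one another. The mitochondrial genes ran from 4.15 ± 0.404 CPM per kb for ValRS-m (valine) to 45.4 ± 7.27 for AspRS-m. AspRS-m was the exception to a separation of the classes in WT, since the next mitochondrial gene, SerRS-m, had a mean of 22.8 CPM per kb, below the means of all cytosolic genes. In single libraries SerRS-m reached 25.5 CPM per kb (WT replicate 2) and TyrRS went down to 25.2 (WT replicate 3).

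In ds38k the order changed among the cytosolic genes. LysRS moved from the seventh place to the highest level, 311 ± 12.3 CPM per kb (SD, n = 4), above SerRS at 274 ± 20.9. GluProRS moved from the third place to 51.6 ± 0.816 CPM per kb, near CysRS (cysteine) at 49.1 ± 1.83. These levels carry no length correction, with which the fall of GluProRS was not called (edgeR adjusted p = 0.054). Protein-coding genes of its length class had a median log2 fold change of -0.92. Both this class and the level per kb of GluProRS rest on a median length of 4278 bases, between annotated transcripts of 3151 and 5405 bases. TyrRS, among the lowest in WT, reached 94.3 ± 2.31 CPM per kb, level with AsnRS (asparagine) at 95.2 ± 7.48. The lowest cytosolic gene was then MetRS at 25.4 ± 1.73 CPM per kb, while AspRS-m had 29.7 ± 2.22.

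**Figure D1:**
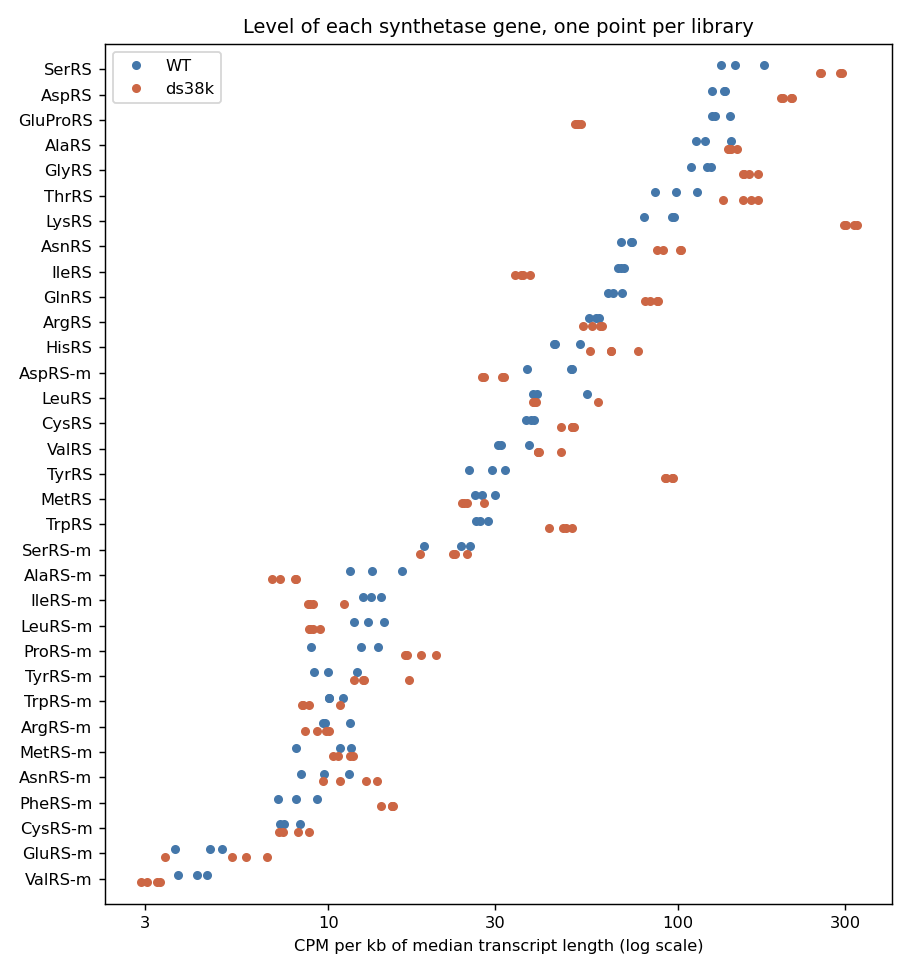
Level of each synthetase gene in CPM per kilobase of the median transcript (log axis), sorted by the WT mean, with one point for each of 3 WT and 4 ds38k libraries. By their WT means the mitochondrial genes other than AspRS-m lie below all cytosolic genes, and the ds38k points of LysRS and TyrRS lie far to the right of their WT points, while those of GluProRS and IleRS lie to the left.

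LysRS (FBgn0027084; dm6 X:9606363-9608884, minus strand) had 207, 210.1 and 173 CPM in the WT libraries and 689.6, 700.1, 654 and 646 CPM in those of ds38k, in the order of their replicate numbers. Every ds38k library was above every WT library by a wide margin, including replicate 4. The WT mean was 197 ± 20.6 CPM (SD, n = 3) and the ds38k mean 672 ± 26.5 CPM (SD, n = 4). By edgeR the log2 fold change of LysRS was 1.77 with an SE of 0.10 (adjusted p = 7.7e-06). With the length correction it was 1.73 ± 0.10 (edgeR adjusted p = 5.9e-05). Of the 861 protein-coding genes in its length class, 1931 to 2285 bases, 94.0% had a lower fold change. LysRS made up 5.15% to 5.90% of the summed cytosolic CPM in WT and 14.1% to 14.9% in ds38k.

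TyrRS (FBgn0027080; dm6 3L:16417349-16419302, minus strand) had 52.1, 56.7 and 44.6 CPM in WT and 163, 171, 164 and 169.9 CPM in ds38k. The ds38k libraries lay close together and the groups did not overlap. The means were 51.1 ± 6.12 CPM in WT (SD, n = 3) and 167 ± 4.10 CPM in ds38k (SD, n = 4). By edgeR TyrRS rose 3.27-fold, with a log2 value of 1.71 and an SE of 0.10 (adjusted p = 9.8e-06). Corrected for length, the rise was 2.83-fold. Its neighbour GluRS-m, the mitochondrial glutamate enzyme, lies 171 bases downstream of TyrRS on the same strand. GluRS-m had 7.48 ± 1.16 CPM in WT (SD, n = 3) and 9.03 ± 2.35 in ds38k (SD, n = 4). Its change of 0.27 ± 0.26 on the log2 scale was not called (edgeR adjusted p = 0.38).

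SerRS (dm6 2L:3035493-3037403) had 324, 268 and 245 CPM in WT and 541, 533, 469.6 and 472 CPM in ds38k. The lowest ds38k library was above the highest WT library. The log2 fold change was 0.85 ± 0.12 (SE; edgeR adjusted p = 5.9e-04), and 0.67 ± 0.11 corrected. The other cytosolic genes that rose did so by less, from ValRS (valine) at 0.33 ± 0.10 to TrpRS at 0.78 ± 0.08 on the log2 scale. Between them lay GlnRS (glutamine, 0.36), CysRS (0.38), AsnRS (0.40), GlyRS (0.43), HisRS (histidine, 0.48), AspRS (0.63) and ThrRS (threonine, 0.64). For each of these 9 genes every ds38k library was above every WT library, and all 9 were also called higher with the length correction, from 0.37 ± 0.10 for AsnRS to 1.01 ± 0.12 for ValRS. The uncorrected rise of ValRS was lost without WT replicate 2, WT replicate 3 or ds38k replicate 1 (edgeR adjusted p = 0.094, 0.085 and 0.054). The corrected rises of AsnRS and HisRS were each lost without WT replicate 2 (edgeR adjusted p = 0.058 and 0.097) or WT replicate 3 (0.067 and 0.082).

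**Figure D2:**
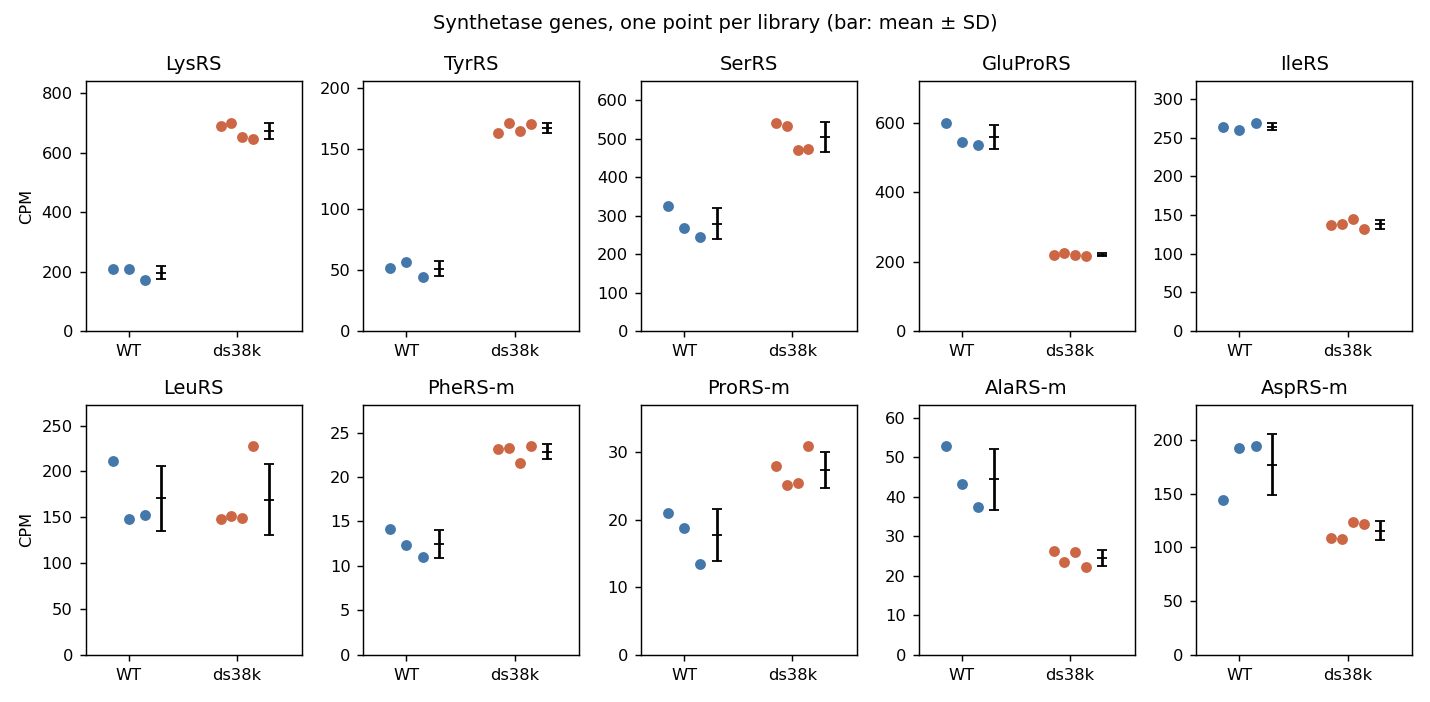
CPM of 10 synthetase genes in each library (linear axes from 0; points are libraries, bars the mean ± SD of 3 WT and 4 ds38k libraries). The groups are separate in all panels but that of LeuRS, where ds38k replicate 4 reached 227 CPM and WT replicate 1 reached 212 CPM, while the other 5 libraries lay between 148 and 152 CPM.

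GluProRS and IleRS, the isoleucine enzyme, were the cytosolic genes that fell. GluProRS (FBgn0005674; dm6 3R:23952136-23958391, minus strand) had 601, 545 and 536 CPM in WT and 221, 225, 219.9 and 217 CPM in ds38k. The mean was 561 ± 35.4 CPM in WT (SD, n = 3) and 221 ± 3.49 CPM in ds38k (SD, n = 4), which is 2.54-fold lower (log2 fold change -1.34 ± 0.07, SE; edgeR adjusted p = 6.9e-06). GluProRS went from 15.3% to 15.9% of the summed cytosolic CPM in WT to 4.74% to 4.92% in ds38k. IleRS (dm6 3L:22288665-22292810) had 264, 259 and 269 CPM in WT and 137, 138, 145 and 132 CPM in ds38k, 1.92-fold lower (log2 fold change -0.94 ± 0.07, SE; edgeR adjusted p = 2.4e-05).

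Both falls belonged to genes with long transcripts and neither was called with the length correction. The median transcript length was 4278 bases for GluProRS and 3845 for IleRS. Protein-coding genes of that length class, 3448 to 4632 bases, had a median log2 fold change of -0.92. The length of GluProRS is the midpoint of its 2 annotated transcripts, of 3151 and 5405 bases. The longer of them falls in the class of the longest transcripts, whose median log2 fold change was -1.60. The corrected values were -0.28 ± 0.10 for GluProRS (edgeR adjusted p = 0.054) and -0.03 ± 0.09 for IleRS (0.80). Over 10 alternatives of the corrected fit the value of GluProRS ran from -0.38 to -0.15. In 9 of them it was again not called, and without WT replicate 3 it was called lower (-0.38, edgeR adjusted p = 0.034).

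LeuRS and MetRS, the leucine and methionine enzymes, were not called before the correction and were called higher after it, with a change of sign. LeuRS had 212, 149 and 152 CPM in WT and 148, 152, 149 and 227 CPM in ds38k, so that the groups overlapped and 1 library of each stood above the rest. Its log2 fold change was -0.01 ± 0.20 (edgeR adjusted p = 0.96), and 0.88 ± 0.19 corrected (0.0087). MetRS had 102, 93.6 and 89.1 CPM in WT and 82.2, 85.0, 82.9 and 94.9 CPM in ds38k. The log2 fold change of MetRS was -0.14 ± 0.09 (edgeR adjusted p = 0.19), and 0.56 ± 0.09 corrected (0.0025). AlaRS was not called before correction (0.19 ± 0.09, edgeR adjusted p = 0.12) and was called higher after it (0.77 ± 0.12, 0.0019). ArgRS, the arginine enzyme, was called in neither fit, with 124 ± 4.09 CPM in WT (SD, n = 3) and 123 ± 7.02 CPM in ds38k (SD, n = 4).

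The 8 cytosolic enzymes that belong to the multi-synthetase complex in humans spanned the whole range of the cytosolic fold changes. Of these, LysRS, AspRS and GlnRS rose, GluProRS and IleRS fell, and ArgRS, LeuRS and MetRS were not called. Their log2 fold changes ran from -1.34 to 1.77 with a median of -0.01, and from -0.28 to 1.73 with a median of 0.49 after correction, when 5 of 8 were called higher. Of the 10 enzymes outside that complex 9 rose and none fell, with a median of 0.45, and all 10 rose after correction, with a median of 0.62. The median transcript length was 2929 bases in the first set and 2298 in the second. By fold, 5 of 9 cytosolic class I genes and 7 of 8 class II genes rose, with medians of 0.33 and 0.55. After correction 7 of 9 and 8 of 8 were called higher, with medians of 0.53 and 0.62.

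**Figure D3:**
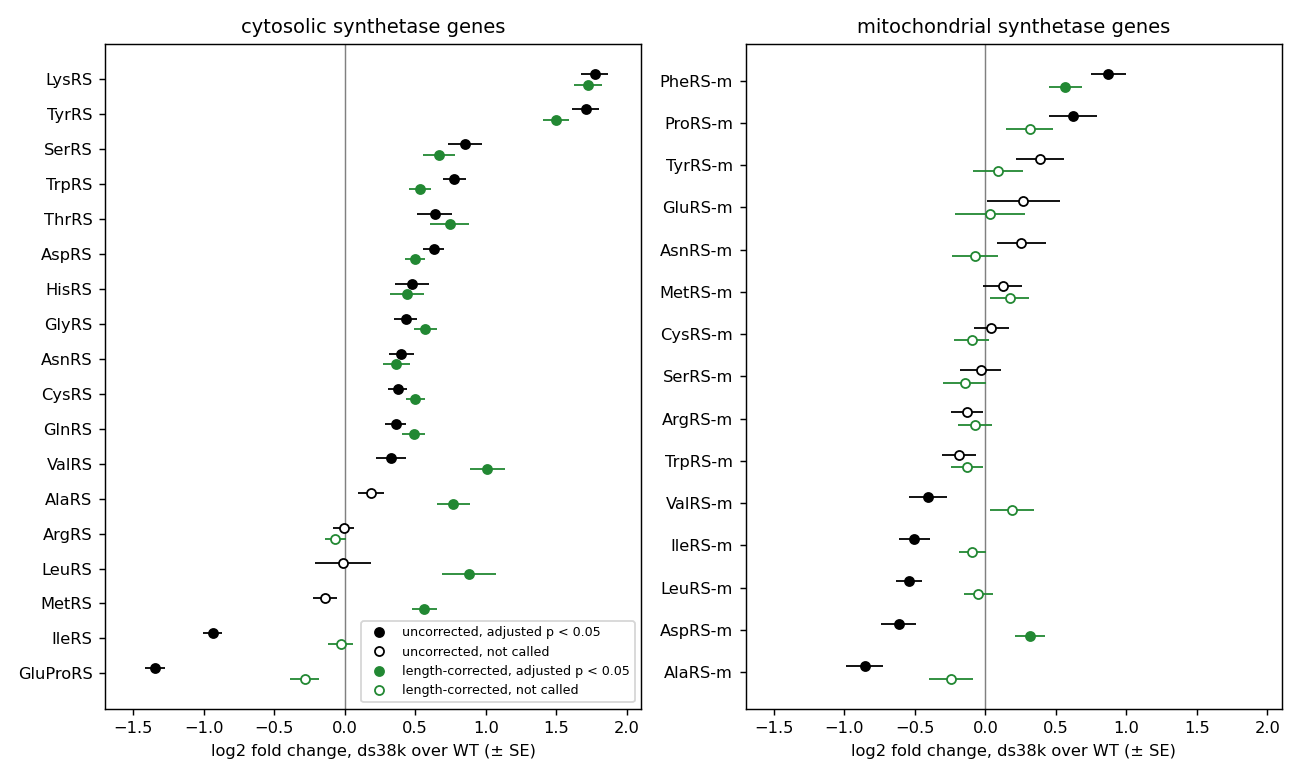
Log2 fold change of ds38k over WT with its SE for 18 cytosolic and 15 mitochondrial synthetase genes, without (black) and with (green) the length correction; filled points had an edgeR adjusted p under 0.05. With the correction 15 cytosolic and 2 mitochondrial points are filled, and LysRS and TyrRS stand highest in both fits.

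Among the mitochondrial genes PheRS-m, the phenylalanine enzyme, and ProRS-m, the proline enzyme, rose. PheRS-m had 14.2, 12.4 and 10.97 CPM in WT and 23.2, 23.3, 21.6 and 23.4 CPM in ds38k. The groups were well separated, and PheRS-m rose 1.83-fold (log2 0.87 ± 0.12, edgeR adjusted p = 6.4e-04), or 1.48-fold corrected (0.0072). ProRS-m had 20.98, 18.8 and 13.5 CPM in WT and 27.9, 25.1, 25.4 and 30.8 CPM in ds38k, again without overlap. Its log2 fold change was 0.62 ± 0.17 (edgeR adjusted p = 0.014), and 0.31 ± 0.17 corrected (0.16).

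The 5 mitochondrial genes that fell were AlaRS-m, AspRS-m, LeuRS-m, IleRS-m and ValRS-m. AlaRS-m had 52.7, 43.1 and 37.3 CPM in WT and 26.2, 23.5, 26.1 and 22.3 CPM in ds38k, 1.81-fold lower (log2 fold change -0.86 ± 0.13, SE; edgeR adjusted p = 0.0010). AspRS-m, at 2L:16827078-16832093, had 144, 192 and 194 CPM in WT and 109, 107, 124 and 122 CPM in ds38k, 1.53-fold lower (edgeR adjusted p = 0.0036). WT replicate 1 was nearer to the ds38k libraries than the other 2 were, but the groups did not overlap. LeuRS-m had 43.7, 39.3 and 35.9 CPM in WT and 27.3, 26.7, 26.6 and 28.5 CPM in ds38k (log2 fold change -0.54 ± 0.09, edgeR adjusted p = 0.0017). IleRS-m fell by 0.50 ± 0.11 and ValRS-m by 0.41 ± 0.14 on the log2 scale. The ValRS-m call (edgeR adjusted p = 0.031) was lost under several other settings, among them each of 5 single libraries left out (0.061 to 0.086).

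These 5 were the mitochondrial genes with the longest median transcripts, from 2900 to 3899 bases. With the length correction none of the 5 was called lower, and the values of AlaRS-m, LeuRS-m and IleRS-m were -0.24, -0.05 and -0.09. AspRS-m turned to 0.32 ± 0.11 (edgeR adjusted p = 0.047). That corrected call was lost when any 1 of the 7 libraries was left out (edgeR adjusted p = 0.0509 to 0.0955) and with the longest transcript (0.097), so the direction of AspRS-m depends on the correction. The 8 genes not called in the main fit ran from -0.19 ± 0.12 for TrpRS-m to 0.38 ± 0.17 for TyrRS-m, with ArgRS-m, SerRS-m, CysRS-m, MetRS-m, AsnRS-m and GluRS-m between them, and none of these 8 was called with the correction. GluRS-m was the gene with the fewest counts, 159 to 304 per library, and the largest SE of log2 fold change, 0.26. Its log2 fold change ran from 0.14 to 0.54 over 13 alternatives without the length correction, and it was called in none of them.

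**Figure D4:**
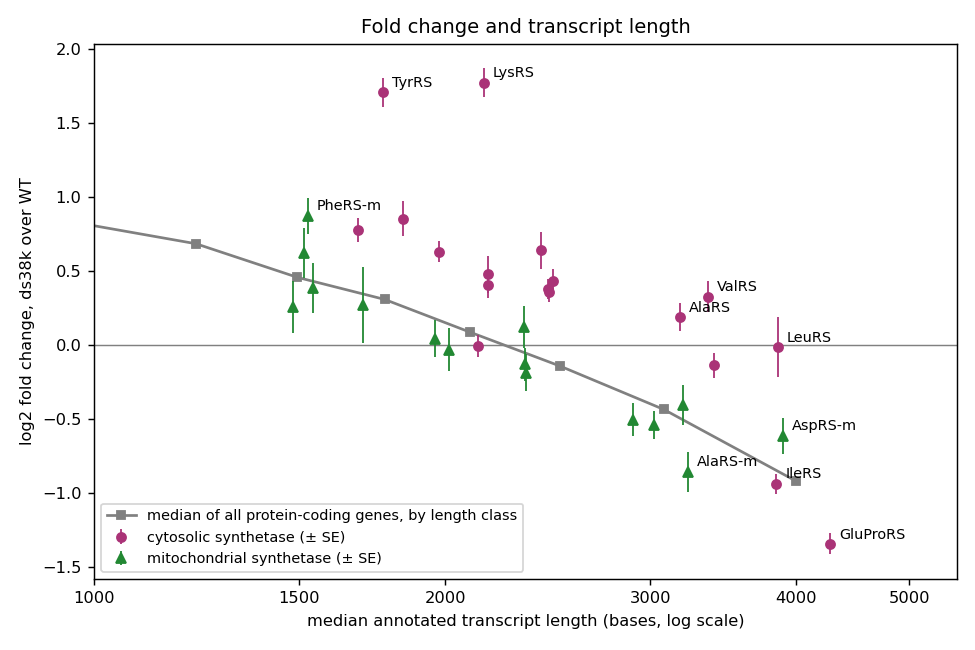
Log2 fold change (± SE) of 33 synthetase genes against the median annotated transcript length (log axis), with the median of all tested protein-coding genes in classes of length as a grey line. Mitochondrial genes lie on both sides of the grey line, and most cytosolic genes lie above it. Among the mitochondrial genes AlaRS-m had -0.86 against a class median of -0.44, and PheRS-m 0.87 against 0.46. The class of the longest transcripts is not drawn.

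The fall of fold change with length was shared by both classes. Spearman's rho between length and log2 fold change was -0.83 over the 18 cytosolic genes, -0.94 over the 15 mitochondrial genes and -0.60 over 8598 protein-coding genes, points that share the same 7 libraries. With the correction it was -0.13, -0.20 and -0.14. At similar lengths the cytosolic genes had the higher fold changes. Under 2000 bases the median was 0.81 for 4 cytosolic genes and 0.33 for 6 mitochondrial genes. From 2000 to 3000 bases it was 0.42 for 8 cytosolic and -0.13 for 5 mitochondrial genes, and above 3000 bases -0.08 for 6 and -0.58 for 4. These are descriptions of the listed genes, with no test.

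The mitochondrial genes together held a smaller share in ds38k. Summed cytosolic synthetase levels were 3890, 3558 and 3359 CPM in WT and 4665, 4701, 4468 and 4566 CPM in ds38k, and summed mitochondrial levels were 501, 539.8 and 503 CPM and 427, 421, 440.3 and 439 CPM. The mitochondrial sum was thus 12.9%, 15.2% and 15.0% of the cytosolic sum in WT and 9.16%, 8.95%, 9.86% and 9.62% in ds38k. The percentages of the groups did not overlap, and with the length correction WT had 12.9 to 14.9 and ds38k 9.30 to 10.3. The mitochondrial sum itself was lower in ds38k only without the correction: corrected, it was 429 to 475 CPM in WT and 473 to 487 CPM in ds38k, and the cytosolic sum 2941 to 3478 and 4735 to 5230 CPM. AspRS-m alone held 28.8% to 38.6% of the uncorrected mitochondrial sum in WT and 25.5% to 28.2% in ds38k. Without AspRS-m the mitochondrial sums of the groups overlapped, at 309 to 357 CPM in WT and 313 to 318.5 CPM in ds38k, while their percentages of the cytosolic sum were 9.17 to 9.76 and 6.66 to 7.08.

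For 12 amino acids both a cytosolic and a mitochondrial gene were among the 33, and for these the ratio of the mitochondrial to the cytosolic gene was compared within each library, where the scaling of libraries cancels. The ratio fell in 8 pairs and rose in 2 (exact two-sided permutation test over 35 splits, adjusted over 12 pairs: p = 0.034). The pairs that fell were those of tyrosine, aspartate, alanine, tryptophan, serine, valine, leucine and cysteine. For each called pair the groups did not overlap and the unadjusted p was 0.0286, the smallest that 35 splits allow. At that floor the adjusted p depends only on how many of the 12 pairs reach it. How often the ratios of other gene pairs separate the groups was not computed, and 66.4% of all tested genes were separated singly.

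The largest fall was that of TyrRS-m over TyrRS, which was 35.7%, 27.3% and 31.5% in WT and 11.3%, 11.4%, 11.9% and 15.4% in ds38k. This is a change of -1.34 ± 0.16 (SE) in the log2 ratio, and of -1.43 with the length correction. AspRS-m over AspRS was 53.5%, 71.9% and 78.5% in WT and 27.9%, 25.9%, 31.4% and 29.3% in ds38k, a change of -1.23 ± 0.18, which was -0.17 when corrected (exact permutation p = 0.26). AlaRS-m over AlaRS was 11.7%, 11.4% and 10.4% in WT and 5.62%, 5.21%, 5.90% and 5.03% in ds38k, a change of -1.04 ± 0.07, and of -1.01 corrected.

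The ratio rose for isoleucine and methionine before correction. IleRS-m over IleRS was 15.6%, 14.1% and 14.4% in WT and 19.2%, 18.3%, 17.8% and 24.4% in ds38k, a change of 0.43 ± 0.11 that was -0.06 when corrected (exact permutation p = 0.71). MetRS-m over MetRS was 26.6%, 27.0% and 21.3% in WT and 32.8%, 28.5%, 30.1% and 29.0% in ds38k, a change of 0.27 ± 0.12 that turned to -0.38 with the correction. ArgRS-m over ArgRS was 19.1%, 21.8% and 18.05% in WT and 19.2%, 18.4%, 17.9% and 16.6% in ds38k, and the groups overlapped. For arginine the change was -0.12 ± 0.09 (exact permutation p = 0.23) and for asparagine -0.15 ± 0.15 (0.37). After length correction the ratio was lower in ds38k for all 12 pairs, and 7 of them passed at an adjusted exact permutation p of 0.049: those of tyrosine, alanine, leucine, serine, valine, cysteine and methionine. The methionine pair depends on the length taken for MetRS-m, whose annotated transcripts run from 1862 to 4314 bases. With the longest transcript the corrected value of MetRS-m was 1.03. That of MetRS was at most 0.64 in any corrected alternative. The pairs were not rerun with longest transcripts. The adjusted p of all 7 depends on how many pairs reach the smallest p.

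**Figure D5:**
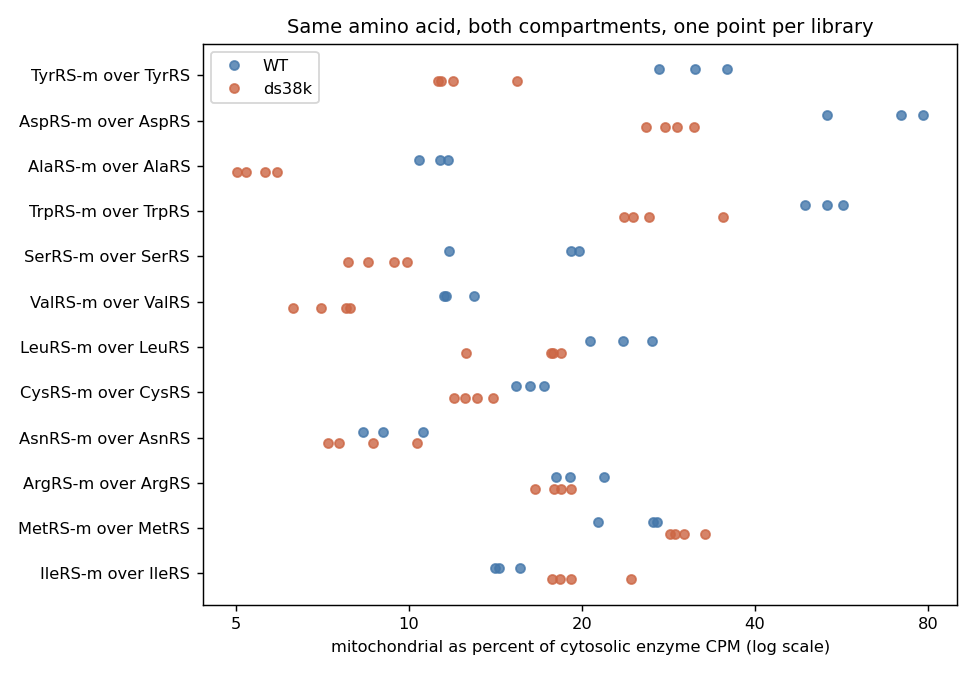
Mitochondrial gene as a percent of the cytosolic gene for the same amino acid (ratio of CPM, log axis), one point per library in 3 WT and 4 ds38k libraries. The ds38k points lie left of the WT points for 8 pairs, overlap them for arginine and asparagine, and lie right of them for methionine and isoleucine.

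Most of the other genes of tRNA charging rose. Of 9 such genes 8 rose and none fell, with a median log2 fold change of 0.67, and 5 rose after correction, with a median of 0.44. Of all tested genes 34.2% rose and 30.8% fell, and 27.6% and 19.1% with the correction, and the counts of the lists that follow stand against the same shares. GatB, another subunit of the mitochondrial amidotransferase, had -0.24 ± 0.30 and was called in neither fit (edgeR adjusted p = 0.50, and 0.24 corrected). The subunits of the cytosolic phenylalanine enzyme rose by similar amounts, alpha-PheRS by 0.67 ± 0.11 (SE) and beta-PheRS by 0.65 ± 0.13, and by 0.44 and 0.52 corrected. AIMP2, a scaffold of the complex, had 37.6 ± 3.78 CPM in WT (SD, n = 3) and 104.9 ± 6.23 CPM in ds38k (SD, n = 4), and rose 2.79-fold (edgeR adjusted p = 1.9e-05), and 1.88-fold corrected. AIMP1 and AIMP3 rose 1.57-fold and 1.71-fold, but were at 1.03-fold and 1.02-fold with the correction, where neither was called (edgeR adjusted p = 0.78 and 0.89). Slimp, a mitochondrial paralog of seryl-tRNA synthetase, rose 2.01-fold, and GatA, a subunit of the amidotransferase that completes mitochondrial glutaminyl-tRNA, 1.82-fold, and both were also called with the correction.

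Cytosolic elongation factors include those that bring charged tRNAs to the ribosome and move it on, and all 7 listed genes rose. All 7 were called in both fits, with a median log2 fold change of 1.59, and 1.07 corrected. One of them, eEF1alpha2, was low in WT, at 2.51 to 5.54 CPM. eEF1alpha1, the carrier of charged tRNA, had 9767 ± 1310 CPM in WT (SD, n = 3) and 29340 ± 1703 CPM in ds38k (SD, n = 4), a log2 fold change of 1.59. Of 9 mitochondrial translation factors 4 rose and none fell, with a median of 0.61, and 3 rose and 1 fell after correction, with a median of 0.24. The corrected share that rose was near that of all genes. The rises included mEFTs (1.56 ± 0.08), the exchange factor of the mitochondrial elongation factor Tu, and mEFTu1 (0.87 ± 0.13), which encodes that factor, while mEFTu2 had -0.28 ± 0.12 (edgeR adjusted p = 0.080) and fell with the correction (-0.51). Of 27 listed tRNA maturation genes 13 were matched by symbol. Of these 13, 5 rose and 2 fell, and 4 rose and none fell after correction, shares of rises near those of all genes. La, whose product binds the ends of new tRNAs, rose by 1.12 ± 0.07 and Pus1, a pseudouridine synthase, by 0.99 ± 0.10, while the corrected values were 0.83 and 0.65. Among those that fell was tyf, which is better known as a translation activator of the clock (-1.44, and 0.21 corrected, where it was not called).

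Genes of the amino acid response, in which the kinase Gcn2 senses uncharged tRNA and the transcription factor ATF4, encoded by crc, induces amino acid enzymes, were mixed. Of 17 genes 8 rose and 2 fell, and 7 rose and none fell after correction, with medians of 0.46 and 0.25. The 2 that fell were the kinase genes Gcn2 (-1.37 ± 0.10) and PEK (-1.02 ± 0.15), whose corrected values were -0.05 and 0.02. The log2 fold change of crc was 0.34 ± 0.14 (edgeR adjusted p = 0.068), and that of AsnS, the asparagine synthetase gene, -0.14 ± 0.40 (0.77).

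Shared sequence limits some of these counts. Of the 33 genes 16 have exons that overlap exons of another gene, 6 of them by at least 100 bases, and the labels do not say whether strand was kept. AspRS overlaps the antisense RNA gene asRNA:CR45141 by 1448 bases, and that gene had 11.9 to 14.8 CPM over all libraries, against 247 to 417 CPM for AspRS. GluProRS overlaps asRNA:CR46092 by 905 bases, with 0.11 to 2.90 CPM in the latter. ArgRS-m overlaps mRpS9, which encodes a mitochondrial ribosomal protein, by 325 bases. mRpS9 had 14.6 to 16.6 CPM in WT and 38.2 to 46.3 CPM in ds38k, while ArgRS-m itself had 22.7 to 27.1 and 20.04 to 23.5 CPM. SerRS-m, CysRS-m and HisRS overlap Nagk, CG13016 and Bx by 356, 302 and 255 bases. The part of these overlaps in the counts was not tested.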

How the data were processed

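RNA of wing discs was sequenced from both ends on an Illumina NovaSeq, per the labels' protocols. The authors deposited 1 table of estimated counts for each gene, not scaled between libraries. FastQC 0.10, Trimmomatic 0.33, Salmon 1.80 (as written there), edgeR and the build dm6 are named in the submitters' processing notes. Salmon assigns reads shared between transcripts by estimation, which affects overlapping genes. No source used here names the annotation release.

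Expected counts were rounded. All 7 columns were mapped by the names in the labels. Within each group, libraries differed beyond sampling noise (chi-square over its degrees of freedom 40.1 to 259.7), so each counted as 1 sample. Genes were kept by filterByExpr (minimum count 10) with TMM scaling. Groups were compared by the quasi-likelihood test of edgeR 4.0.16 over all genes (R 4.3.3) with Benjamini-Hochberg adjustment at 0.05. Standard errors were derived from each log2 fold change and its F statistic. CPM are TMM-scaled, except those of the marker sums, which use total counts. Log2 CPM for ratios used a prior count of 2. The length correction was a natural spline (5 degrees of freedom) on log2 median transcript length, fitted per library and entered as an offset. It was fitted to the deviation of each gene's log2 CPM from its mean over the libraries. It also removes real change that runs with length. Lengths and dm6 coordinates come from Ensembl's BDGP6 annotation, which held all 33 genes. DESeq2 1.42.0 was an alternative. The genes and lists were chosen with earlier results of these data known. Values in every library are given for the 5 called genes of each class with the largest change, for genes whose sign turned to a call with the correction, and for the 3 highest and 3 lowest pairs. Complex and fold groupings were added after values were seen. Figures were drawn with matplotlib 3.10.9 (Python 3.11.15). The values of 1 gene of the tRNA maturation list are not reported here.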

Additional observations from a re-analysis of the deposited data

Results flagged for a closer look

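In 6 of 33 genes 1 of the 4 ds38k libraries stood apart, by a gap to its nearest neighbour that exceeded Dixon's 95% critical value. By chance about 1 in 20 groups is flagged. The share flagged among all tested genes was not computed, and ds38k replicate 4 also stood apart in the counts as a whole. The count covers the ds38k libraries alone. LeuRS had a log2 CPM of 7.83 in ds38k replicate 4 (227 CPM, against 148 to 152 in the other 3). IleRS-m had 5.01 (32.1 CPM, against 25.3 to 26.1) and TrpRS-m 4.67 (25.4 CPM, against 19.8 to 20.6) in the same library, which is also the one with the lowest fat body marker sum of the ds38k group, 48.5 CPM. CysRS had 6.83 in ds38k replicate 1 (114 CPM, against 122 to 124), ValRS had 7.28 in replicate 1 (156 CPM, against 134 to 135), and PheRS-m had 4.44 in replicate 3 (21.6 CPM, against 23.2 to 23.4). The cause of these gaps was not tested. In the fit without ds38k replicate 4 TrpRS-m was called lower (-0.28, edgeR adjusted p = 0.044).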

How the results depend on the processing

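Over 13 alternatives without a length correction 24 of the 33 genes kept their call, and 27 kept the length-corrected call over its 10 alternatives. Upper-quartile factors raised the median log2 fold change of all tested genes from 0.07 to 0.33. With them 5 mitochondrial genes were called higher and 3 lower, and ArgRS turned to 0.26. With the length correction 0 cytosolic and 0 mitochondrial genes, 0 in all, were lower, also in the replicate block with length correction. The cytosolic median, less that of all tested genes, was then 0.49 and 0.52, and 0.26 with no filter on low counts, against 0.32. For mitochondrial genes this difference was -0.10, 0.0078 with the replicate block and -0.22 to 0.0068 without 1 library, reversing without ds38k replicate 4.

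The length correction turned LeuRS (0.88, and 0.78 with the replicate block), MetRS (0.56 and 0.56), AspRS-m (0.32 and 0.33) and ValRS-m (0.19 and 0.26), and with the block IleRS (0.027). It left 0 pairs with a risen ratio, and turned those of isoleucine (-0.061) and methionine (-0.38). With longest transcripts 1 mitochondrial gene, AlaRS-m, was lower, 1 in all, MetRS-m rose (1.03), and the corrected mitochondrial difference was -0.032 against -0.11. Without 1 library the corrected fit gave 14 to 16 higher and 0 to 1 lower calls, cytosolic 13 to 15 and 0 to 1, mitochondrial 1 and 0, with mitochondrial differences of -0.155 to -0.0385 (-0.0488 without WT replicate 2, -0.0456 without ds38k replicate 4). Uncorrected, it gave 13 to 15 and 6 to 8, cytosolic 11 to 13 and 2, mitochondrial 2 and 4 to 6. Longest transcripts and the fits without 1 library were added after seeing the data for the corrected values. The mitochondrial sum without AspRS-m was also chosen after seeing the data.

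Same-numbered libraries correlated by 0.137, 0.003 and 0.098 in their deviations from the group means, and differently numbered ones by -0.108 to 0.0445. All these values were small, and they do not settle whether the numbers pair the libraries. With 1 library left out, or as pairs in the replicate block, the ratio tests gave 0 falls and 0 rises because their smallest p is then 0.0667, 0.1 or 0.25, with 10 ratios lower and 2 higher in each. The cause of the other differences was not tested. GluRS-m had the fewest counts and the largest SE of the 33 genes.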

Other observations

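All 8 genes of the amino acid response list that rose are given here, and the list was not tested as a set. CG6287, phosphoglycerate dehydrogenase of serine synthesis, had 20.8, 11.9 and 11.6 CPM in WT and 115.2 to 139 CPM in the ds38k libraries, a rise of 8.76-fold (edgeR adjusted p = 3.2e-05), and of 6.46-fold with the length correction. CG11899, phosphoserine aminotransferase of the same pathway, rose 3.10-fold (2.15-fold corrected). The phosphatase gene aay had 0.970 to 1.83 CPM in WT and 9.39, 11.2, 11.2 and 4.57 CPM in ds38k, a rise of 5.93-fold (4.76-fold corrected). Shmt and Nmdmc, which act in the one-carbon metabolism of folate, rose by 0.71 ± 0.15 and 1.25 ± 0.22 on the log2 scale (SE), and by 0.59 and 0.78 corrected. Gadd45, a stress response gene, rose 3.02-fold (2.44-fold corrected). The log2 rises were 1.30 ± 0.14 (0.91 corrected) for eIF2alpha, the translation initiation factor subunit that Gcn2 and PEK phosphorylate, and 0.86 ± 0.16 (0.12, not called) for Irbp18, which encodes a bZIP protein. In ds38k replicate 4, where fat body markers summed to 48.5 CPM, these 8 genes went both ways. CG6287, Gadd45, Shmt, eIF2alpha and Irbp18 were at their highest of the ds38k group there, and CG11899, aay and Nmdmc at their lowest. The part of other tissues in these rises was not tested.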
